A study of Mus musculus with 10 samples.

Results

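The levels of 8 entries of a mouse miRNA count table are described across wild-type embryonic stem cells and cells that lack Dgcr8, Drosha, Dicer or both Ago1 and Ago2. The entries are mmu-miR-3963, mmu-miR-6240, mmu-miR-6539, mmu-miR-5099, mmu-miR-5126, mmu-miR-6236, mmu-miR-6239 and mmu-miR-1983, where mmu stands for the mouse and is mostly left out from here on. They are 8 of the 1907 entries of the table, of which 1262 had at least 1 count. They were chosen by name, as entries that overlap or resemble fragments of structural RNA and as entries that dominate the Dicer knockout libraries. Their levels in the Dicer knockout therefore chose them, and those levels are given below as a description with no test. As a description of those same levels, the second trait held for 6 of the 8 entries only. In the Dicer knockout miR-3963, miR-6240, miR-5126, miR-6539 and miR-5099 held ranks 1 to 5 by mean level and miR-6236 rank 8. There miR-1983 stood at rank 135 and miR-6239 at rank 300.

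The 10 libraries are small RNA libraries made from 1 µg of total RNA of E14 mouse embryonic stem cells, a line of 129/Ola background taken from the blastocyst. The groups, with 2 libraries each, are wild type (WT), Dgcr8 knockout (Dgcr8_KO), Drosha knockout (Drosha_KO), Dicer knockout (Dicer_KO) and a knockout of both Ago1 and Ago2 (Ago12_KO). All groups, the wild type included, grew on gelatine in medium with 15% serum and 100 U/mL of leukaemia inhibitory factor (LIF), the cytokine that keeps mouse stem cells undifferentiated. The libraries of the Dicer_KO group carry a different code each (C1 and H11), and those of the WT group do too (P25 and P33). Nothing in the labels says that the libraries of the other groups came from separate cultures or clones, so the p-values below measure the spread between these libraries, which may be technical. Date-like codes stand only on the Dgcr8_KO and the Ago12_KO libraries, with a code for each group, so such a batch and the genotype cannot be told apart. The mRNAs of the deleted genes were not measured.

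A canonical miRNA is cut from its primary transcript by the Microprocessor, a complex of the nuclease Drosha and its RNA-binding partner Dgcr8. The nuclease Dicer then cuts the hairpin into a duplex, and an Argonaute protein such as Ago1 or Ago2 takes up and holds a strand. Mirtrons, some hairpins inside transfer RNA (tRNA) or small nucleolar RNA (snoRNA) genes and other such substrates reach Dicer without the Microprocessor. Fragments of ribosomal RNA, tRNA and snoRNA arise by other cuts, and many have the length of a miRNA, so that a database can list them under a miRNA number.

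Mature sequences for 6 of the 8 entries were found in RefSeq (GRCm38.p6). They are shown because their length and base composition set several of them apart from most mouse miRNAs. Each is written 5′ to 3′ with the seed, bases 2 to 8, in capitals.
miR-3963: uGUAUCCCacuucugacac
miR-6240: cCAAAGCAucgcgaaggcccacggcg
miR-5126: gCGGGCGGggccgggggcgggg
miR-6236: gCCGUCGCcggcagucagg
miR-6239: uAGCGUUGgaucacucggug
miR-1983: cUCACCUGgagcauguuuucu

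These 6 sequences had 6 different seeds. Among the other entries of the table, miR-330-3p has the seed of miR-6240, miR-6351 that of miR-6239 and miR-412-3p that of miR-1983, and the remaining 3 seeds were found in no other entry. Over 1679 mouse mature sequences the median length was 22 bases, with a 5th to 95th percentile of 20 to 24, and the median GC content was 52.2%. miR-6240, with 26 bases, was longer than 99.2% of them, and miR-3963 and miR-6236, with 19 bases, were among the shortest. miR-5126 consists of G and C alone, and miR-6236 has a GC content of 79.0%. As background, the sequence of miR-6240 resembles a stretch of the large ribosomal RNA, and that of miR-6239 resembles the start of a smaller ribosomal RNA. These resemblances were not tested, and of ribosomal RNA only the transcripts that GENCODE annotates were searched, as given below.

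For miR-6539 and miR-5099 the hairpins are shown instead, from GENCODE M21, as DNA letters in transcript direction. miR-6539 lies on the minus strand at chr14:67859636-67859745 and miR-5099 on the plus strand at chr12:36816205-36816278.
miR-6539 hairpin: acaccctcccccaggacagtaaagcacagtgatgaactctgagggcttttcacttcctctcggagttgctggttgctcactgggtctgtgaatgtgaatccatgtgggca
miR-5099 hairpin: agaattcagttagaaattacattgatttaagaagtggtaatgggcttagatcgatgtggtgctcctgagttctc

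The annotation placed only miR-1983 of the 8 in a structural RNA gene. Its hairpin on the minus strand, chr13:21896918-21897049, spans the whole isoleucine tRNA gene n-TItat14 (chr13:21896938-21897031, 94 bases in RefSeq). Of its 21 mature bases, 13 lie in the tRNA gene, and 8 run past its end. The mature RNA and the hairpin follow, with the part inside the tRNA gene in capitals.
miR-1983 mature: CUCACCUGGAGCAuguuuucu
miR-1983 hairpin: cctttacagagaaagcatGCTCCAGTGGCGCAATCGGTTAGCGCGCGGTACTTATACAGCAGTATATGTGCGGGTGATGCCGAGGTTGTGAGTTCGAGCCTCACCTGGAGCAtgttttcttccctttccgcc

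The bases past the tRNA end hold a run of T, the letter of which terminators of RNA polymerase III are made. A small RNA from this tRNA precursor has been described in mouse embryonic stem cells as needing Dicer but not the Microprocessor, which is background and not a result of these libraries.

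The other hairpins lie elsewhere in GRCm38. miR-6539 is in an intron of Dock5, on its strand. miR-5126 (chr1:84695839-84695915, plus strand) lies opposite an exon with a UTR of Dner, and miR-6239 (chr14:117953743-117953847, minus strand) opposite an intron of Gpc6. miR-6236 (chr9:110281287-110281409, plus strand) is inside the lncRNA gene Gm39429 of RefSeq. No other annotated gene was found over miR-3963 (chr3:151023792-151023862, minus strand), miR-6240 (chr5:114851948-114852064, plus strand) or miR-5099. Against 3909 annotated structural transcripts of GENCODE, all 6 mature sequences differed from the nearest stretch by 5 to 9 bases, miR-1983 by 5. The tRNA gene above, from RefSeq, was not part of that search. Sequences of the large ribosomal RNA and of the smaller one mentioned above were not at hand either. The search therefore could not find matches to these RNAs, and its mismatches say nothing about them.

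The hairpin of miR-6239 holds its mature sequence at bases 61 to 80 and an almost equal stretch at bases 31 to 50, which differs by the substitution G17A, counted from the 5′ end of the mature sequence. That stretch, tagcgttggatcactcAgtg, is shown with the changed base in capitals. How the authors' alignment treated reads that match more than 1 place is not given in the sources used here. Reads of an entry that resembles an abundant RNA, or that has a copy, may be shared with it, so these counts are uncertain in that respect. Whether the counting used the strand is not given either, so reads of Dner and Gpc6 cannot be told apart from those of miR-5126 and miR-6239.

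Predicted folds of most of the 8 hairpins lay within the usual range. The minimum free energy per base (RNAfold) had a median of -0.41 kcal/mol over 1174 mouse hairpins, and 7 of the 8 entries were above it, that is, less stable, but only 1 of them beyond the 95th percentile. That entry was miR-6240 at -0.21 kcal/mol per base, and 98.5% of hairpins were more stable. miR-5126 was the exception at -0.63 kcal/mol per base, with a hairpin GC content of 83.1%. In the predicted fold of miR-1983, 95.2% of the mature bases were paired, against 68.2% to 85.0% in the other 5 entries with a mature sequence.

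**Figure D1:**
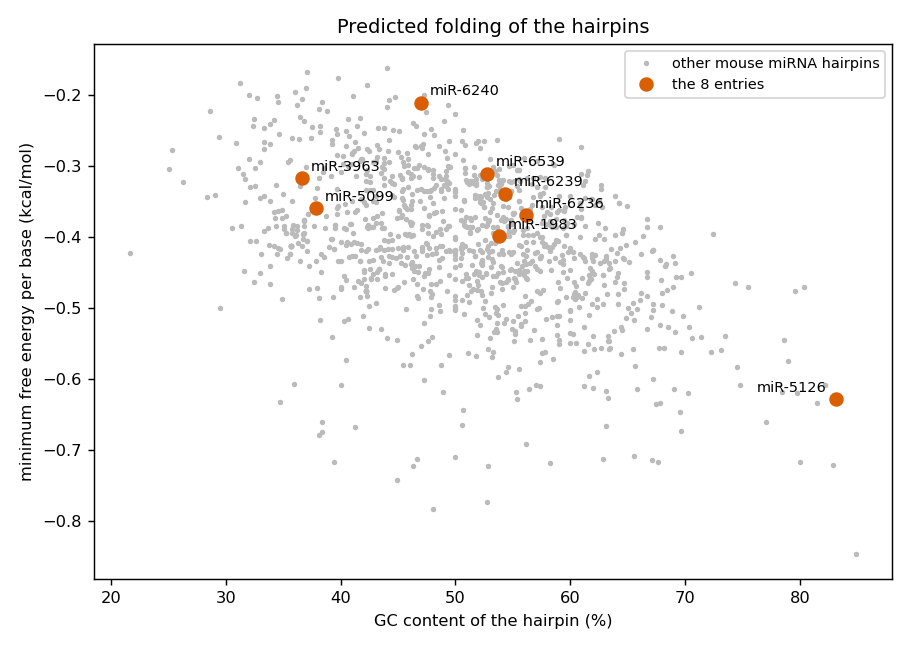
Minimum free energy per base in kcal/mol (y axis) against the GC content of the hairpin in percent (x axis) for 1174 mouse miRNA hairpins (grey points) with the 8 entries marked (orange). miR-6240 lies near the top, at -0.21 kcal/mol per base, and miR-5126 at the far right, at 83.1% GC.

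The libraries held 37476 to 2357868 counts, a range of 62.9-fold, and the knockouts were all below the wild type. A single count was worth 0.42 CPM (counts per 1000000 counts of the library) in the deepest library and 26.7 CPM in the shallowest. Libraries of the same group differed by more than counting noise in every group, where the chi-square divided by its degrees of freedom ran from 3.88 (Dgcr8_KO) to 63.9 (Ago12_KO). The 10 stem cell miRNAs used as markers took 13.7% to 14.8% of the counts in WT, 10.3% to 12.7% in Dgcr8_KO and Drosha_KO, 6.45% to 7.27% in Ago12_KO and 1.00% to 1.15% in Dicer_KO, where 6 of the 10 had any count. The 5 fibroblast markers took 0.48% to 0.60% in WT, 1.47% to 2.53% in Dicer_KO and 0.92% to 1.36% in Ago12_KO. Of these markers, miR-21a-5p alone had a mean share of 1.97% in Dicer_KO, so the higher share there was mostly that of this entry. The 4 blood markers took 0.11% to 0.12% in WT, 0.037% to 0.044% in Dicer_KO, 0.21% to 0.27% in Drosha_KO and 0.34% to 0.66% in Ago12_KO. The 3 markers of liver, gut and endoderm took 0.14% in both WT libraries and 0.68% to 1.16% in Ago12_KO, and at most 0.051% in the other knockouts. The 3 neural markers took 0.28% to 0.30% in WT and at most 0.16% in the knockouts, and the 3 muscle markers were below 0.001% in every library. The part of these shifts in the results below was not tested.

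Together the 8 entries took 74.8% ± 3.49 (SD, n = 2) of all counts in Dicer_KO. Their share was 13.2% ± 0.228 in Dgcr8_KO, 12.1% ± 0.469 in Drosha_KO, 8.84% ± 1.07 in Ago12_KO and 0.736% ± 0.0914 in WT. The Dicer_KO libraries stood at 72.3% (95% Clopper-Pearson interval 71.9 to 72.7) and 77.3% (76.8 to 77.7), intervals that cover counting error only. No other library was above 13.3% and no knockout library was below 8.09%, so the Dicer_KO, Dgcr8_KO, Drosha_KO and Ago12_KO groups were all apart from WT, and the Dgcr8_KO and Drosha_KO groups were near each other without overlap. Fewer cells with an RNA and less of it per cell cannot be told apart in such bulk libraries.

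**Figure D2:**
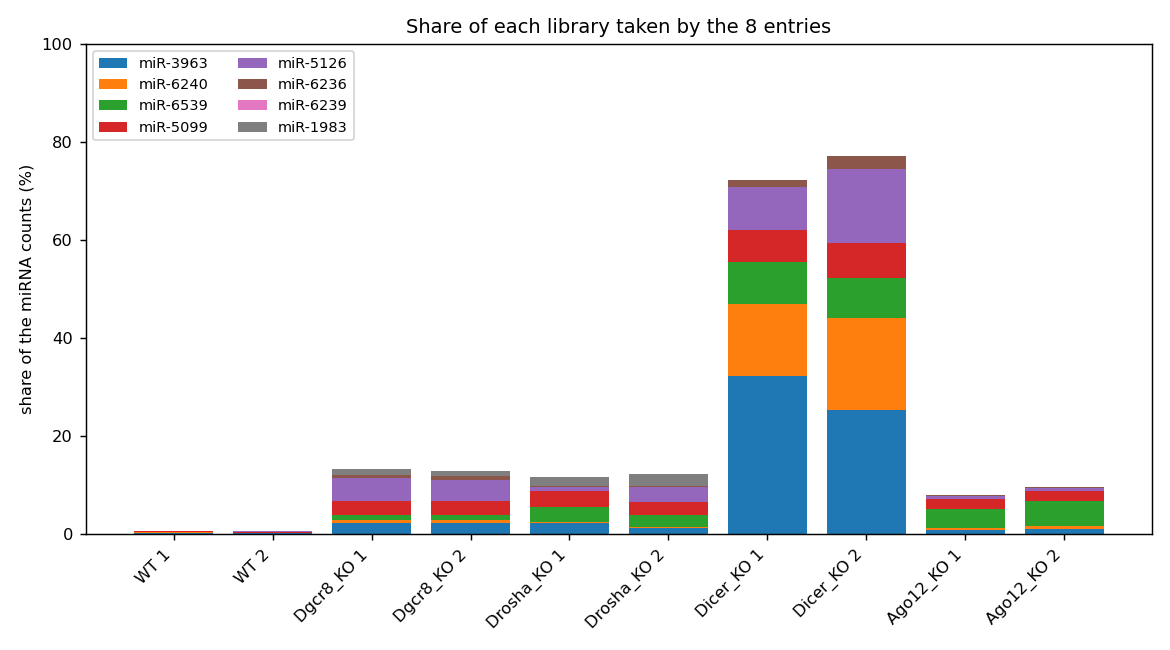
Share of all counts of a library in percent (y axis) taken by each of the 8 entries (stacked colours) in each of the 10 libraries (x axis). The stack reaches 72.3% and 77.3% in Dicer_KO, 8.09% to 13.3% in the other knockouts and at most 0.80% in WT.

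The counts themselves varied far less than the shares. The Dicer_KO libraries held 32703 and 28952 counts of the 8 entries together, and the WT libraries held 18874 and 13047. There were 28260 and 22018 counts in Ago12_KO, 38564 and 53114 in Dgcr8_KO, and 4642 and 5003 in Drosha_KO. The highest of these was 11.4 times the lowest. All other entries together had 8524 to 2338994 counts, a range of 274-fold. The mean count of the 8 in Dicer_KO was 1.93 times that in WT, while the mean count of all other entries was 203 times lower. In Drosha_KO the mean count of the 8 was 3.31 times lower than in WT and that of all others 60.8 times lower. In Dgcr8_KO the 8 entries had 2.87 times the WT count and all others 7.04 times less, and in Ago12_KO the 8 had 1.58 times the WT count and all others 8.08 times less. A CPM is a share, so each value in CPM below also moves with what the other entries did. How much RNA a count stands for per cell was not measured.

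**Figure D3:**
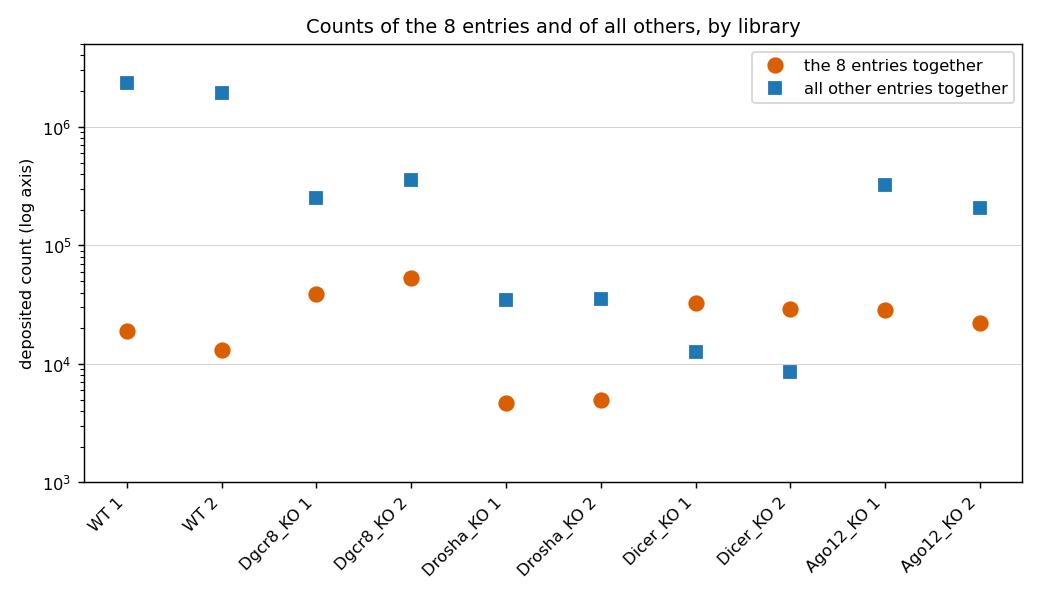
Deposited counts (y axis, log scale) of the 8 entries together (orange circles) and of all other entries together (blue squares) in each library (x axis). The circles span 4642 to 53114 and the squares 8524 to 2338994, and the circles lie above the squares in the Dicer_KO libraries only.

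The 8 entries did not keep 1 mixture across genotypes. miR-3963 made up 38.8% ± 8.36 (SD, n = 2) of their counts in Dicer_KO and 34.4% ± 8.14 in WT. In Ago12_KO miR-6539 alone made up 50.4% ± 4.76, in Dgcr8_KO miR-5126 led with 34.3% ± 1.17, and in Drosha_KO miR-5099 and miR-6539 led with 24.1% ± 3.29 and 23.3% ± 5.87. miR-1983 held 18.0% ± 2.64 of their counts in Drosha_KO and 0.015% ± 0.0036 in Dicer_KO.

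mmu-miR-3963 was the most abundant entry of both Dicer_KO libraries. It stood at 323117 and 253816 CPM there, at 24007 and 23210 CPM in Dgcr8_KO, at 22348 and 12480 CPM in Drosha_KO, at 9043 and 11892 CPM in Ago12_KO, and at 3211 and 1920 CPM in WT. No groups overlapped, and the Drosha_KO libraries differed from each other by 1.79-fold. The mean in Dicer_KO was 112 times that in WT by CPM and 2.13 times by counts.

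mmu-miR-6240, the longest of the 6 mature sequences, was second in both Dicer_KO libraries. Its values were 146942 and 187720 CPM in Dicer_KO, 5847 and 5760 CPM in Dgcr8_KO, 4784 and 5113 CPM in Ago12_KO, 2177 and 3027 CPM in Drosha_KO, and 749 and 907 CPM in WT. The order was the same in all libraries, with no overlap between neighbouring groups. Its Dicer_KO mean was 202 times that in WT and 28.8 times that in Dgcr8_KO, the next group.

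mmu-miR-5126, made of G and C alone, had the largest spread of the 8 between the WT libraries and between the Drosha_KO libraries. It stood at 87258 and 151510 CPM in Dicer_KO, at 46799 and 43516 CPM in Dgcr8_KO, at 8858 and 30641 CPM in Drosha_KO, at 6083 and 5567 CPM in Ago12_KO, and at 1194 and 73.1 CPM in WT. The WT libraries thus differed by 16.3-fold and the Drosha_KO libraries by 3.46-fold, against 1.09-fold or less in Dgcr8_KO and Ago12_KO. Every fold change of this entry against WT rests on which WT library is used. In Dgcr8_KO miR-5126 was the first of the 8, at rank 4 of all entries in both libraries.

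mmu-miR-6539, from the intron of Dock5, was low in WT and high in every knockout. Its values were 84981 and 81466 CPM in Dicer_KO, 38029 and 51577 CPM in Ago12_KO, 32295 and 23818 CPM in Drosha_KO, 10489 and 10779 CPM in Dgcr8_KO, and 557 and 582 CPM in WT. No groups overlapped. It was the highest of the 8 in both Ago12_KO libraries, at ranks 5 and 3 of all entries. By counts, the Ago12_KO libraries held 3.64 times as many as the Dicer_KO libraries, with 25116 against 6896 in sum.

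mmu-miR-5099 varied least among the knockouts. It stood at 66251 and 70472 CPM in Dicer_KO, at 31080 and 27068 CPM in Drosha_KO, at 27368 and 28303 CPM in Dgcr8_KO, at 21213 and 20148 CPM in Ago12_KO, and at 1613 and 2516 CPM in WT. The Drosha_KO and Dgcr8_KO libraries overlapped, and the other groups did not. Its Dicer_KO mean was 33.1 times that in WT by CPM, while by counts WT held 1.54 times as many.

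mmu-miR-6236, in the lncRNA gene Gm39429, followed the order of miR-6240 down to Ago12_KO, at lower levels. It stood at 14484 and 27431 CPM in Dicer_KO, at 6424 and 6781 CPM in Dgcr8_KO, at 1709 and 1643 CPM in Ago12_KO, at 1215 and 1737 CPM in Drosha_KO, and at 162 and 81.3 CPM in WT. The Ago12_KO and Drosha_KO libraries overlapped. The WT libraries differed by 1.99-fold and the Dicer_KO libraries by 1.89-fold.

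mmu-miR-6239 was a low entry in every group but Drosha_KO. It had 23 and 29 counts there, or 582 and 719 CPM, against 48.4 and 44.0 CPM in Dgcr8_KO, 8.59 and 13.1 CPM in Ago12_KO, and 3.82 and 3.09 CPM in WT. In Dicer_KO it had 2 counts (44.2 CPM) in replicate 1 and 0 of 37476 counts in replicate 2, which allows up to 80.1 CPM by 3 counts. The Dicer_KO libraries overlapped those of the Dgcr8_KO, Ago12_KO and WT groups, so the level of miR-6239 without Dicer could not be placed in that order at this depth.

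mmu-miR-1983, the entry from the tRNA gene, was high by CPM without the Microprocessor and low without Dicer or without Ago1 and Ago2. Its values were 18931 and 24637 CPM in Drosha_KO, 12209 and 11580 CPM in Dgcr8_KO, and 515 and 629 CPM in WT. In Dicer_KO it had 4 and 5 counts, or 88.5 and 133 CPM, and in Ago12_KO 11 and 6 counts, or 31.5 and 26.2 CPM. By CPM no groups overlapped, and both knockouts downstream of the Microprocessor were below WT. The mean CPM of Drosha_KO was 196 times that of Dicer_KO, that of Dgcr8_KO 107 times and that of WT 5.16 times. The entries outside the 8 had 12519 and 8524 counts in Dicer_KO, beside the 4 and 5 of miR-1983. In WT they had 2338994 and 1930821, beside 1214 and 1223. The order of Dicer_KO and WT on that base was not tested, so miR-1983 was below WT as a share of all counts only.

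**Figure D4:**
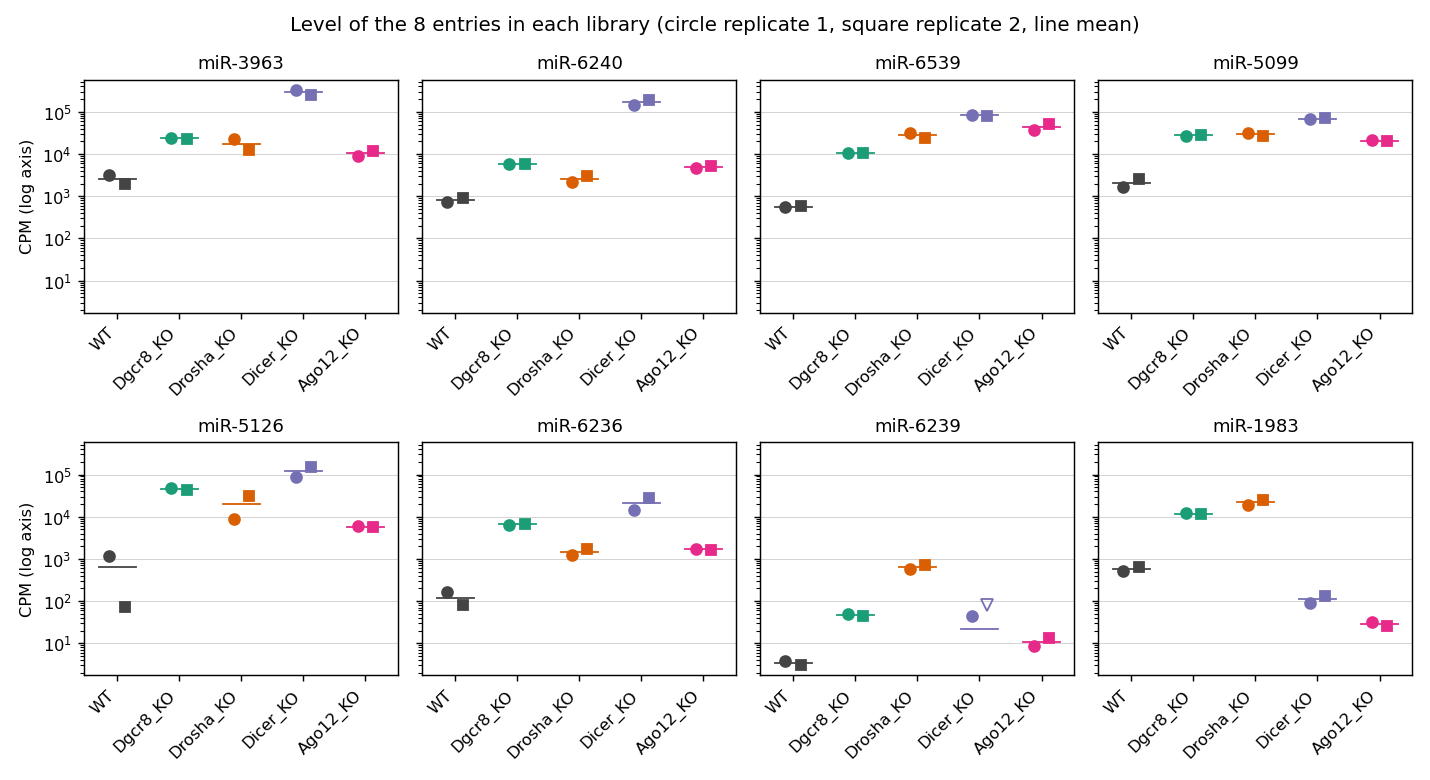
Level in CPM (y axis, log scale) of each of the 8 entries (panels) in the 5 groups (x axis), with replicate 1 as a circle, replicate 2 as a square and the group mean as a line. The open triangle marks the 80.1 CPM that 3 counts would give in the Dicer_KO library where miR-6239 had 0 counts. The top 6 by level are highest in Dicer_KO, whereas miR-6239 and miR-1983 are highest in Drosha_KO.

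Comparisons in which Dicer_KO is not a side were tested with edgeR's quasi-likelihood test, fitted to all 10 libraries on column totals, over the 481 entries that passed a filter on low counts, with Benjamini-Hochberg adjustment. An entry was called where the adjusted p was under 0.05, and all 8 passed the filter. miR-6239 reached the filter's minimum of 38.5 CPM in both libraries of the Drosha_KO and Dgcr8_KO groups only. It passed through the groups where it is high. Its tests against WT and in Ago12_KO against Dgcr8_KO are therefore given as values and support nothing. The other 7 were above that minimum in both WT libraries. The 3 comparisons with WT share the WT libraries with each other and with the difference that chose the entries, and the pair of comparisons with Dgcr8_KO share the Dgcr8_KO libraries.

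All of the 8 entries other than miR-6239 were called higher in Dgcr8_KO than in WT. This stands beside 32.4% of all tested entries called higher and 41% called lower (73.4% called in all). miR-6239 was called higher too, but its test against WT supports nothing. The median log2 fold change of the 8, miR-6239 included, was 3.99, against -0.41 over all tested entries. miR-5126 changed by 6.15 (SE 1.10, adjusted p = 0.000476 by edgeR), and without WT replicate 1 or 2 it was 9.27 or 5.24. miR-6236 changed by 5.76 (SE 0.48, adjusted p = 2.62e-06), or by 6.34 and 5.35 without WT replicate 1 and 2, and miR-1983 by 4.38 (SE 0.32, adjusted p = 1.55e-06). miR-6240 changed by 2.81 (SE 0.26, adjusted p = 6.18e-06). On counts that were not scaled by library size all 8 kept their direction, but miR-3963, miR-6240 and miR-6239 were no longer called.

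Other than miR-6239, all of the 8 entries were also called higher in Drosha_KO than in WT on column totals. This stands beside 26.2% of tested entries called higher and 31.6% called lower (57.8% called in all). miR-6239 was called higher too, but that test supports nothing. On unscaled counts all of the 8 except miR-6239 were lower. The median of the 8, miR-6239 included, was 4.39 on the log2 scale, against -0.87 over all tested entries. Without scaling these medians were -1.40 and -6.40. miR-6539 changed by 5.62 (SE 0.30, adjusted p = 2.41e-07 by edgeR) and miR-1983 by 5.25 (SE 0.33, adjusted p = 5.98e-07). miR-6240 changed by 1.65 (SE 0.26, adjusted p = 0.000199). miR-6239, with 15 counts in all in WT and 52 in Drosha_KO, had a fitted change of 7.46 (SE 0.52, adjusted p = 9.63e-07). miR-5126 changed by 4.96 (SE 1.04, adjusted p = 0.00172), or by 8.07 and 4.05 without WT replicate 1 and 2.

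In Ago12_KO, 6 of the 8 entries were higher than in WT and 1 was lower, beside 28.7% of tested entries called higher and 25.8% called lower (54.5% called in all). On unscaled counts miR-6539 alone of the 6 was still called higher, and miR-3963 and miR-6240 turned to -0.94 and -0.31. The median of the 8 was 2.89, against -0.016 over all tested entries. miR-6539 rose by 6.30 on the log2 scale (SE 0.31, adjusted p = 1.99e-07 by edgeR), which is 78.7-fold. miR-1983 fell by 4.29 (SE 0.35, adjusted p = 7.11e-06), or 19.5-fold. miR-6239 was not called, with 1.53 (SE 0.73, adjusted p = 0.0987) from 3 counts in each Ago12_KO library. miR-5126 changed by 3.20 (SE 0.96, adjusted p = 0.0148), or by 6.31 and 2.29 without WT replicate 1 and 2.

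**Figure D5:**
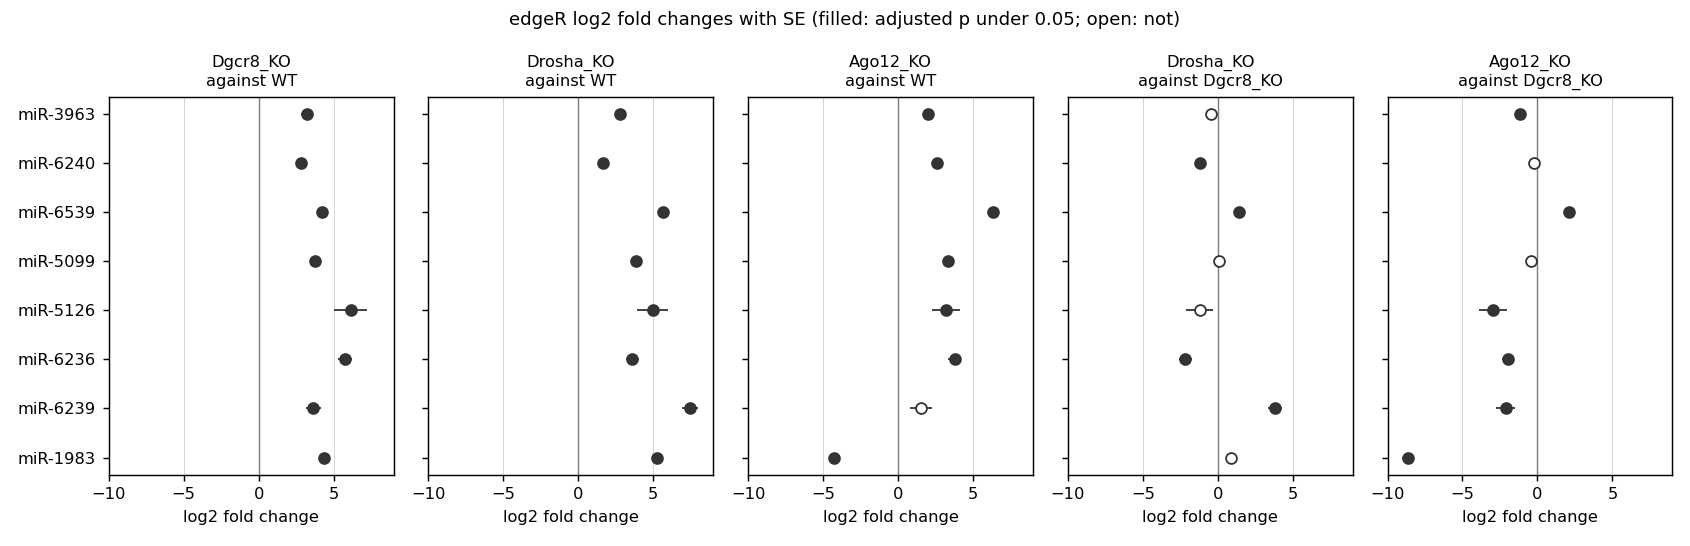
Log2 fold change with its standard error (x axis) of each of the 8 entries (y axis) in 5 comparisons (panels), with filled points for an adjusted p under 0.05. All points of the first 2 panels lie right of 0 on column totals, although without scaling 7 of the 8 in Drosha_KO against WT lie left of it, and miR-1983 lies far left in both Ago12_KO panels, at -4.29 and -8.66.

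Drosha_KO and Dgcr8_KO lack the partners of the same complex, and neither group compared here holds a Dicer_KO or WT library, although all 10 libraries share the filter and the estimate of spread. Of the 8 entries, 2 were higher in Drosha_KO and 2 lower, beside 8.32% of tested entries called higher and 5.61% called lower (13.9% called in all), and 4 were not called. miR-6239 was higher by 3.82 on the log2 scale (SE 0.47, adjusted p = 0.00027 by edgeR) and miR-6539 by 1.40 (SE 0.25, adjusted p = 0.00346). Of these, miR-6539 turned to -1.73 on unscaled counts and miR-6239 lost its call. miR-6236 was lower by 4.47-fold (log2 -2.16, SE 0.42, adjusted p = 0.00526). miR-6240 was lower by 2.23-fold (log2 -1.16, SE 0.25, adjusted p = 0.00923), and this was no longer called when Dgcr8_KO replicate 1 (adjusted p = 0.0725) or replicate 2 (adjusted p = 0.0667) was left out. miR-1983 had a log2 difference of 0.87 (SE 0.28, adjusted p = 0.0587), with both Drosha_KO libraries above both Dgcr8_KO libraries, and was called in that direction under 5 of its 20 alternatives but lower, at -2.25, on unscaled counts. miR-5099 had a difference of 0.063 (SE 0.25, adjusted p = 0.943), miR-3963 of -0.44 (SE 0.32, adjusted p = 0.425) and miR-5126 of -1.19 (SE 0.89, adjusted p = 0.436), which was called lower without Drosha_KO replicate 2 (-2.35, adjusted p = 0.0413), with no filter (-1.19, adjusted p = 0.00101) and on unscaled counts (-4.30, adjusted p = 0.00524).

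Between Ago12_KO and Dgcr8_KO, 1 of the 8 was higher in Ago12_KO and 5 were lower, beside 45.7% of tested entries called higher and 31.8% called lower (77.5% called in all). The 5 include miR-6239, which was below the filter's minimum in Ago12_KO and passed through Drosha_KO and Dgcr8_KO. Its value here supports nothing. The median of the 8 was -1.58, against 0.83 over all tested entries. miR-6539 was 4.21-fold higher (log2 2.07, SE 0.25, adjusted p = 4.52e-05 by edgeR). miR-1983 was 406-fold lower (log2 -8.66, SE 0.40, adjusted p = 1.10e-07). This fold rests on 11 and 6 counts in Ago12_KO, below the filter's minimum there, although miR-1983 was above that minimum in WT too. miR-5126 was lower by 7.75-fold (log2 -2.95, SE 0.95, adjusted p = 0.0148), and this call was lost without Ago12_KO replicate 1 (adjusted p = 0.0612) or replicate 2 (adjusted p = 0.0644). miR-6239 was lower by 4.34-fold (log2 -2.12, SE 0.62, adjusted p = 0.00966), a call lost without Ago12_KO replicate 1 (adjusted p = 0.0628). miR-6236 was 3.94-fold lower (adjusted p = 0.0012) and miR-3963 2.26-fold lower (adjusted p = 0.00693). miR-6240 and miR-5099 differed by -0.23 (SE 0.25, adjusted p = 0.402) and -0.43 (SE 0.25, adjusted p = 0.142), and miR-5099 was called lower with TMM factors (adjusted p = 0.0223), with only the groups compared (adjusted p = 0.0202) and with DESeq2's own size factors (adjusted p = 0.0454).

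The profiles of the 8 over the 10 libraries were compared as the root mean square difference of their centred log2 CPM, where 0 is the same profile. miR-3963 and miR-6240 were the closest pair at 0.796, and miR-6240 and miR-1983 the farthest at 5.18. miR-5099 was nearest to the mean profile of the 8, at 0.614. miR-6239 and miR-1983 were farthest from it, at 2.25 and 3.64. Of the 473 tested entries outside the 8, those most like the mean profile were miR-7226-3p at 0.287, miR-2137 at 0.715, miR-677-5p at 0.795, miR-3068-3p at 0.890 and miR-1949 at 0.929, with a median over all tested entries of 3.03. miR-7226-3p stood at 938 CPM in Dicer_KO, 527 in Drosha_KO, 431 in Dgcr8_KO, 144 in Ago12_KO and 22.9 in WT. These distances describe the 10 libraries, which share their depth by group.

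The non-members among the 10 most abundant entries of Dicer_KO were ordinary miRNAs. miR-182-5p had 67641 ± 15016 CPM (SD, n = 2) there and 122951 ± 3771 in WT, and miR-183-5p had 29360 ± 7671 and 20699 ± 1438. miR-21a-5p stood at 19736 ± 7646 CPM in Dicer_KO and 2411 ± 232 in WT, and miR-293-5p, of the stem cell cluster miR-290 to miR-295, at 9676 ± 1420 and 10726 ± 581. By mean CPM, none of the 8 was among the 50 most abundant entries of WT, although miR-3963 held rank 45 in replicate 1 and miR-5099 rank 50 in replicate 2, against 7 in Dgcr8_KO, 6 in Drosha_KO and Dicer_KO, and 5 in Ago12_KO.

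Other entries in structural RNA genes were set beside the 8. The annotation placed 24 further entries on such genes, mainly snoRNA and related genes, and 20 of them were tested. Some are both arms of the same hairpin, such as miR-3068-5p and miR-3068-3p, so the 20 are not independent. Most of the 20 had a WT mean below the filter's minimum of 38.5 CPM, such as miR-664-3p at 4.01 CPM. Such entries passed through knockout groups where they are high, so the counts and medians below support nothing for them. In Dgcr8_KO against WT 19 were higher and 0 lower, with a median log2 fold change of 4.01 against -0.41 over all tested entries, of which 32.4% were higher and 41% lower. In Drosha_KO against WT 17 were higher and 0 lower, with a median of 5.55 against -0.87, beside 26.2% higher and 31.6% lower over all tested entries. In Ago12_KO against WT 8 were higher and 0 lower, with a median of 1.35 against -0.016, beside 28.7% higher and 25.8% lower over all tested entries. By mean CPM, miR-3535, miR-5121, miR-3068-3p, miR-1839-5p and miR-677-5p were above the filter's minimum in WT. Each was called higher than WT in Dgcr8_KO and in Drosha_KO, and all of them but miR-1839-5p in Ago12_KO.

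Against Dgcr8_KO, 5 of these 20 were higher and 1 lower in Drosha_KO, and 1 was higher and 15 lower in Ago12_KO, where their median was -3.29 against 0.83 over all tested entries. Most of the 20 had an Ago12_KO mean below the filter's minimum and passed through other groups. miR-6516-5p, for instance, had 54.0 CPM in Dgcr8_KO, 87.6 in Drosha_KO and 0 in Ago12_KO. For such entries the Ago12_KO count and median support nothing. Among those above the minimum in Ago12_KO by mean CPM, miR-3068-3p, miR-5121 and miR-1839-5p were called lower. There miR-1839-5p was close to the minimum, at 43.2 ± 11.8 CPM (SD, n = 2). Of the same entries, miR-3535 was called higher and miR-677-5p in neither direction. Also above it were miR-664-5p (44.8 CPM) and miR-1291 (84.1 CPM), whose calls are not given singly here. Over all tested entries 8.32% were higher and 5.61% lower in Drosha_KO, and 45.7% higher and 31.8% lower in Ago12_KO. miR-1839-5p had a log2 difference of -4.83 (SE 0.39, adjusted p = 2.25e-06 by edgeR) and miR-3068-5p of -8.85 (SE 1.05, adjusted p = 8.75e-05) in Ago12_KO against Dgcr8_KO, the direction of miR-1983. As miR-3068-5p had 0 CPM in Ago12_KO, the size of its difference is not a measured fold. miR-3535 was higher by 1.02 (SE 0.35, adjusted p = 0.0191), the direction of miR-6539. miR-5121, in the snoRNA gene Snord33, had 6139 ± 300.1 CPM (SD, n = 2) in Dicer_KO, 1714 ± 116 in Dgcr8_KO and 169 ± 0.643 in WT, and of all entries outside the 8 its profile was the nearest to that of miR-3963, at 0.741.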

How the data were processed

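The deposited table holds raw counts per miRNA entry, and the submitters' processing notes name Bowtie and the mouse build mm10. For trimming, mismatches and multiple matches, the sources used here give no setting. The test on counts was that of edgeR 4.0.16 (quasi-likelihood, all 10 libraries in 1 fit, 5 residual degrees of freedom). Each SE of a log2 fold change was derived from that test, as the absolute log2 fold change divided by the square root of its F statistic. Column totals, 37476 to 2357868, served as library sizes, since TMM assumes that most entries do not change. The filter by group kept 481 of 1907 entries. CPM were computed from the column totals. Shares carry 95% Clopper-Pearson intervals. Hairpins were folded with ViennaRNA 2.7.2, with positions from GENCODE M21 and RefSeq GRCm38.p6. The members, lists and tests were chosen with earlier results of these data known. Entries outside the 8 were named by 3 rules: the 5 profiles nearest to the mean of the 8, those among the 10 most abundant in Dicer_KO, and up to 6 of the list in structural RNA genes by mean CPM. The entry nearest to miR-3963 alone, and those nearest to miR-1983, miR-6239, miR-6539 and miR-6236, were picked with their values in view. The alternatives tried were DESeq2 1.42.0, other scalings and filters, only the groups compared, a replicate block, and each library left out in turn.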

Additional observations from a re-analysis of the deposited data

How the results depend on the processing

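Without scaling by library size the median log2 fold change of all tested entries shifted by -2.62 in Dgcr8_KO against WT, -5.54 in Drosha_KO against WT, -2.87 in Ago12_KO against WT, -2.94 in Drosha_KO against Dgcr8_KO and -0.27 in Ago12_KO against Dgcr8_KO, and with TMM factors by -0.31 to -0.65. On unscaled counts 5 of the 8 were called higher in Dgcr8_KO against WT. In Drosha_KO against WT 1 was higher and 4 lower, and in Ago12_KO against WT 1 was higher and 1 lower (miR-1983, at -7.14). In Drosha_KO against Dgcr8_KO 0 were higher and 7 lower. Over all tested entries, the calls higher and lower were then 51 and 329, 5 and 399, 16 and 336, and 5 and 348 in these 4 comparisons, against 156 and 197, 126 and 152, 138 and 124, and 40 and 27 on column totals. With TMM factors they were 109 and 179 in Ago12_KO against WT and 35 and 38 in Drosha_KO against Dgcr8_KO.

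The directions that turned without scaling, as log2 fold changes, were these. In Drosha_KO against WT, miR-3963 stood at -3.03, miR-6240 at -4.08, miR-6539 at -0.13, miR-5099 at -1.91, miR-5126 at -0.90, miR-6236 at -2.19 and miR-1983 at -0.49. In Ago12_KO against WT, miR-3963 stood at -0.94, miR-6240 at -0.31 and miR-6239 at -1.29. In Drosha_KO against Dgcr8_KO, miR-6539 stood at -1.73, miR-5099 at -3.07 and miR-1983 at -2.25. miR-5099 in that comparison also turned to -0.25 with TMM factors and to -0.040 without Drosha_KO replicate 1 (0.16 without replicate 2). By construction, unscaled counts carry the difference in depth.

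With each library left out in turn, 1 to 3 entries were called lower in Drosha_KO against Dgcr8_KO (3 without Drosha_KO replicate 2), and 3 to 5 in Ago12_KO against Dgcr8_KO, with 3 without Ago12_KO replicate 1. The cause was not tested. miR-1983 in Drosha_KO against Dgcr8_KO was called higher with DESeq2's size factors in edgeR (adjusted p = 0.0345), in both DESeq2 fits (adjusted p = 5.21e-06 and 0.00515), with only the groups compared (adjusted p = 0.0388) and without Drosha_KO replicate 1 (adjusted p = 0.0241). Without miR-3963 the share of the remaining entries was 45.9% in Dicer_KO, 10.8% in Dgcr8_KO, 10.3% in Drosha_KO, 7.80% in Ago12_KO and 0.479% in WT. The replicate block left the number called higher at 8 in Dgcr8_KO against WT and changed no member's call. These 8 include miR-6239, whose test against WT supports nothing. Of all 481 tested entries, 151 were then called higher and 188 lower in that comparison. The numbers do not pair the libraries: no label states a pairing, and their differences correlated between groups by -0.065 to 0.14. Of the other values of single entries, 760 kept direction and side of the threshold, 12 lost their call and 12 gained one. miR-6239 gave no value in Ago12_KO against WT when only those groups were fitted, as it did not pass the filter there. Depth limits miR-6239 and miR-1983 in Dicer_KO and Ago12_KO, where they had 0 to 11 counts.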

Other observations

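The entries with profiles nearest to miR-1983 and to miR-6239, chosen after their values were seen, were not among the 8. For miR-1983 they were miR-1981-5p at a root mean square difference of 0.886, miR-702-3p at 0.966 and miR-1981-3p at 0.998, which are known as mirtrons, introns that Dicer cuts after splicing. miR-1981-5p stood at 4229 CPM in Drosha_KO, 772 in Dgcr8_KO, 53.6 in WT, 13.3 in Dicer_KO and 2.86 in Ago12_KO. miR-702-3p stood at 2242 CPM in Drosha_KO, 1593 in Dgcr8_KO, 92.7 in WT and 2.18 in Ago12_KO, and had 0 counts in Dicer_KO. Like miR-1983, both were highest in Drosha_KO and below WT in Ago12_KO. In Dicer_KO miR-1981-5p had 1 count in all, and 3 counts there would give 66.3 and 80.1 CPM, so it could not be placed against WT.

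For miR-6239 the nearest entry was miR-664-3p at 0.787, in the snoRNA gene Snora36b, with 326 CPM in Drosha_KO, 109 in Dgcr8_KO, 22.1 in Dicer_KO, 14.4 in Ago12_KO and 4.01 in WT. miR-344d-3p followed at 1.12, with 263 CPM in Drosha_KO, 39.1 in Dgcr8_KO, 4.29 in Ago12_KO and 0 counts in WT and Dicer_KO. These levels rest on few counts in the Dicer_KO libraries, where a single count is worth 22.1 and 26.7 CPM.

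For miR-6539 the nearest entry was miR-5100 at 0.846, with 3142 ± 28.4 CPM (SD, n = 2) in Dicer_KO, 1412 ± 1189 in Drosha_KO, 509 ± 181 in Ago12_KO, 316 ± 2.70 in Dgcr8_KO and 25.1 ± 10.1 in WT. For miR-6236 it was miR-2137 at 0.688, with 0.893 CPM in WT and 300 ± 142 CPM in Dicer_KO.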
